A study of Drosophila melanogaster with 9 samples.

Results

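The genes described here are the 34 glutathione S-transferase (GST) genes of Drosophila melanogaster that the microarray measured by a named probe set, of 11982 genes with a probe set that carries a single gene symbol. A gene was taken if its symbol began with Gst, followed by a class letter (D, E, O, S, T or Z) and a digit. This gave 36 probe sets, and for GstE9 and GstO2, which have a pair of probe sets each, the one with the higher mean was kept. The delta class (D) has 11 of these genes, epsilon (E) 13, omega (O) 3, sigma (S) 1, theta (T) 4 and zeta (Z) 2. Adult Canton-S flies of 5 to 6 days, males and females together, 25 to a sample, were held for 2.5 h in normoxia (NC), in constant hypoxia at 1% O2 (CH), or in intermittent hypoxia made of 4-min phases at 1% O2 and 4-min phases at 21% O2 in turn (IH). The O2 level was ramped between the IH phases, and more slowly on the way down than on the way up. A full IH cycle was therefore longer than its 4-min phases together, with a smaller share of it spent at 1% O2. All groups are the same wild-type strain, with no transgene or mutation, and each sample is RNA of whole flies pooled over both sexes. Each group has 3 arrays. Nothing in the labels says whether the samples of a group came from separate cultures, so the p-values rest on a spread among samples that may be partly technical. In whole flies, a change of RNA within cells and a change in the share of a cell type cannot be told apart.

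GSTs join the tripeptide glutathione to reactive molecules, such as products of lipid oxidation and many insecticides, which makes these more soluble and easier to export. Several GSTs also reduce organic peroxides. The delta and epsilon classes have expanded in insects and are best known for insecticide metabolism, whereas the omega, sigma, theta and zeta classes are shared with mammals. In flies, part of the delta and epsilon genes are transcribed under the Nrf2 homologue cnc, which Keap1 holds back until the cell meets oxidants or electrophiles. The question put to them is which of these genes differ in RNA level when low O2 is held constant and when it alternates with normal O2.

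The deposited values are linear signals, scaled so that the trimmed mean was 2500 on every array. Median signals per array lay between 675 and 771 in NC, 705 and 782 in CH, and 594 and 823 in IH, with 21.6% to 25.8% of probe sets under 100. Precision is limited by the number of arrays. The 3 arrays numbered 1 had a log2 ratio of the actin 3′ to 5′ control probe sets of 0.96, 0.75 and 0.72, above the 0.29 to 0.52 of the other 6, and the mean log2 signal of the 18S ribosomal RNA controls was 6.88 to 7.40 in NC, 8.19 to 9.68 in CH and 7.07 to 10.5 in IH. Those listed markers of the main organs that could be matched to a probe set were measured on every array, none of them under a signal of 100 throughout.

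Among the 34 genes, a few of the delta and epsilon classes had higher signals in CH, and most of the rest lay near their NC level. GstE1 and GstE3 of the epsilon class and GstD10 and GstD2 of the delta class were 3.40-fold, 2.03-fold, 1.67-fold and 3.04-fold above NC, and the first 3 were above NC in IH as well, by 1.77-fold, 1.48-fold and 1.43-fold. These genes are also in the study's own list of genes changed in CH, which was drawn from these same arrays and is no independent evidence. Each gene was tested with limma on log2(signal + 16) over all 18769 probe sets. A gene was called when its adjusted p was under 0.05, its fold was above 1.5 or under 0.67, and all 3 arrays lay on one side of the other group's mean. The study set like limits but tested with another program, and its list for CH is much longer than the set of probe sets called here.

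No GST gene met these limits in CH, where 0.0213% of all probe sets did. At an unadjusted p under 0.05, 5 of 34 genes (14.7%) were higher in CH, against 2.98% of all probe sets, and 1 (2.94%) was lower, against 1.70%. All 3 CH arrays lay above all 3 NC arrays for 6 genes (17.6%), GstD2, GstD5, GstD10, GstE1, GstE3 and GstE5, against 7.13% of all probe sets. They lay below for GstD11 and GstE9 (5.88%), against 5.39%. The log2 difference was above 0 for 19 genes (55.9%), against 51.7%, and its median was 0.04 over the 34 genes and 0.01 over all probe sets. Higher genes were a larger share than in the background, and the medians were close.

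**Figure D1:**
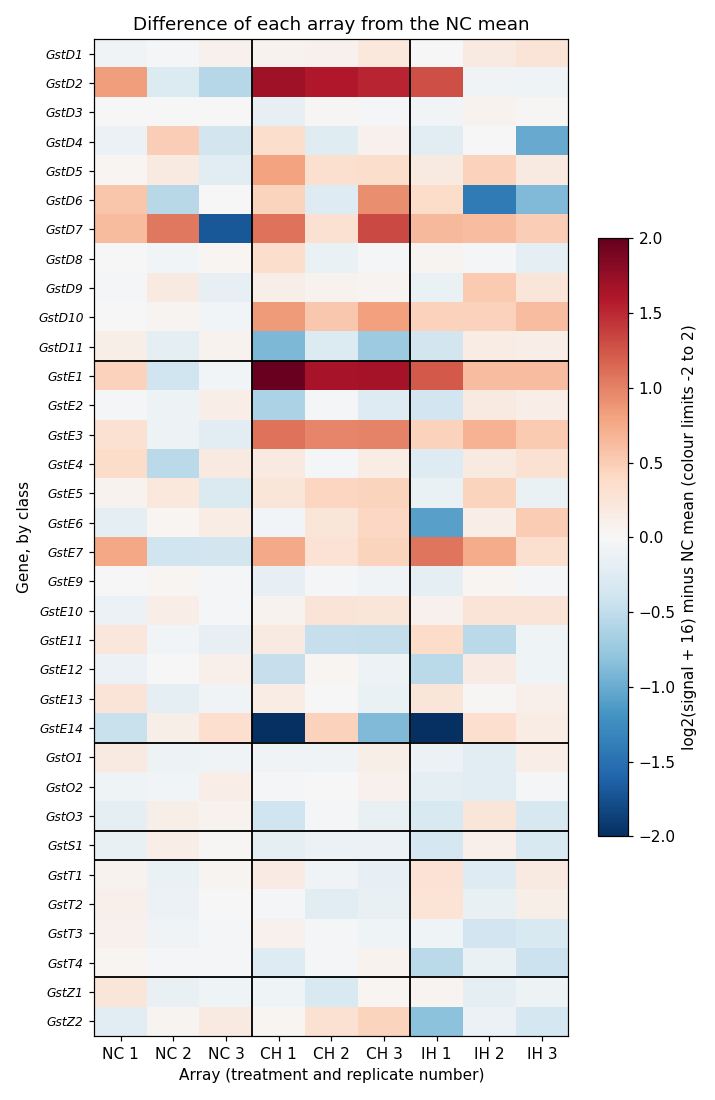
Each cell is the log2(signal + 16) of 1 gene on 1 array minus that gene's NC mean, with genes in rows by class and the 9 arrays in columns, and colours limited to -2 and 2. The red cells of the CH columns lie mainly in GstE1, GstE3, GstD2, GstD10 and, less evenly, GstD7, whose NC arrays differ widely. The 10 genes of the omega, sigma, theta and zeta classes are pale in most columns.

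GstE1 encodes an epsilon-class enzyme and had the smallest p of the family in CH. Its signal was 1773, 969.8 and 1241 on the NC arrays, 5114, 4059 and 4138 on the CH arrays and 3039, 1992 and 1989.7 on the IH arrays. The groups did not overlap: every CH array lay above every IH array, and every IH array above every NC array. The means were 1328 ± 408 in NC, 4437 ± 588 in CH and 2340.1 ± 605 in IH (SD, n = 3). The log2 difference from NC was 1.76 (SE 0.27, 95% interval 1.14 to 2.39, limma adjusted p = 0.168) in CH and 0.82 (SE 0.27, 95% interval 0.20 to 1.45, limma adjusted p = 1.00) in IH. With the dimmest 40% of probe sets left out, GstE1 met all the limits in CH (limma adjusted p = 0.0439), and with a mean-dependent, robust estimate of the spread it did so too (0.0175). Over all alternatives the adjusted p from limma ran from 0.0175 to 0.519.

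GstE3, another epsilon-class enzyme, had the same order. Its signal was 7387, 5576 and 5141 on the NC arrays, 12651, 11768 and 11918 on the CH arrays and 8202, 9664 and 8613 on the IH arrays. Again all CH arrays were above all IH arrays and these above all NC arrays. The log2 difference from NC was 1.02 (SE 0.18, 95% interval 0.61 to 1.43, limma adjusted p = 0.286) in CH and 0.56 (SE 0.18, 95% interval 0.15 to 0.98, limma adjusted p = 1.00) in IH. Under the mean-dependent, robust spread, GstE3 also met the limits in CH (limma adjusted p = 0.0280, the lowest of a range that reached 0.776).

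GstD10 is a delta-class gene. Its signal was 844, 874 and 806 on the NC arrays, 1526, 1229 and 1504 on the CH arrays and 1159.6, 1167 and 1295 on the IH arrays. Neither hypoxia group overlapped NC, and the CH and IH arrays overlapped each other, with 1 CH array between the IH values. The log2 difference was 0.74 (SE 0.16, 95% interval 0.38 to 1.10, limma adjusted p = 0.468) in CH and 0.51 (SE 0.16, 95% interval 0.16 to 0.87, limma adjusted p = 1.00) in IH. The comparisons of CH and of IH with NC use the same NC arrays, so that a low NC value enters both.

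GstD2, a delta-class gene, had its high signals mainly in CH. Its signal was 3652, 1690.4 and 1376 on the NC arrays, 6631, 6215 and 5917 on the CH arrays and 5031, 1939.9 and 1913 on the IH arrays. The CH arrays lay above all others, whereas in NC and IH the array numbered 1 was high and the other 2 were low. The log2 difference from NC was 1.61 (SE 0.46, 95% interval 0.55 to 2.66, limma adjusted p = 0.720) in CH and 0.38 (95% interval -0.68 to 1.43) in IH, where it was -0.08 without IH replicate 1. GstD5, of the same class, had signals of 1454, 1604 and 1218 on the NC arrays, 2493, 1768 and 1822 on the CH arrays and 1604, 1949 and 1606 on the IH arrays. The CH arrays were above NC with a narrow gap, and IH overlapped both. The CH difference was 0.49 (SE 0.20, 95% interval 0.03 to 0.96, limma adjusted p = 1.00).

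GstD11 was the one gene lower in CH at an unadjusted p under 0.05. Its signal was 265, 214 and 256 on the NC arrays, 123, 199 and 142 on the CH arrays and 186, 272 and 268 on the IH arrays. All CH arrays lay below all NC arrays, and 1 IH array lay below the CH maximum. The log2 difference was -0.63 (SE 0.23, 95% interval -1.16 to -0.11, limma adjusted p = 0.921) in CH. It is dim enough to be removed by a filter on the dimmest 40% of probe sets. With the mean-dependent spread, without the 3 arrays numbered 1, or without any 1 of NC replicates 1 and 3 and CH replicates 1 and 3, 0 GST genes were lower in CH at that threshold, while the difference of GstD11 lay between -0.81 and -0.44 over the alternatives that held it.

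**Figure D2:**
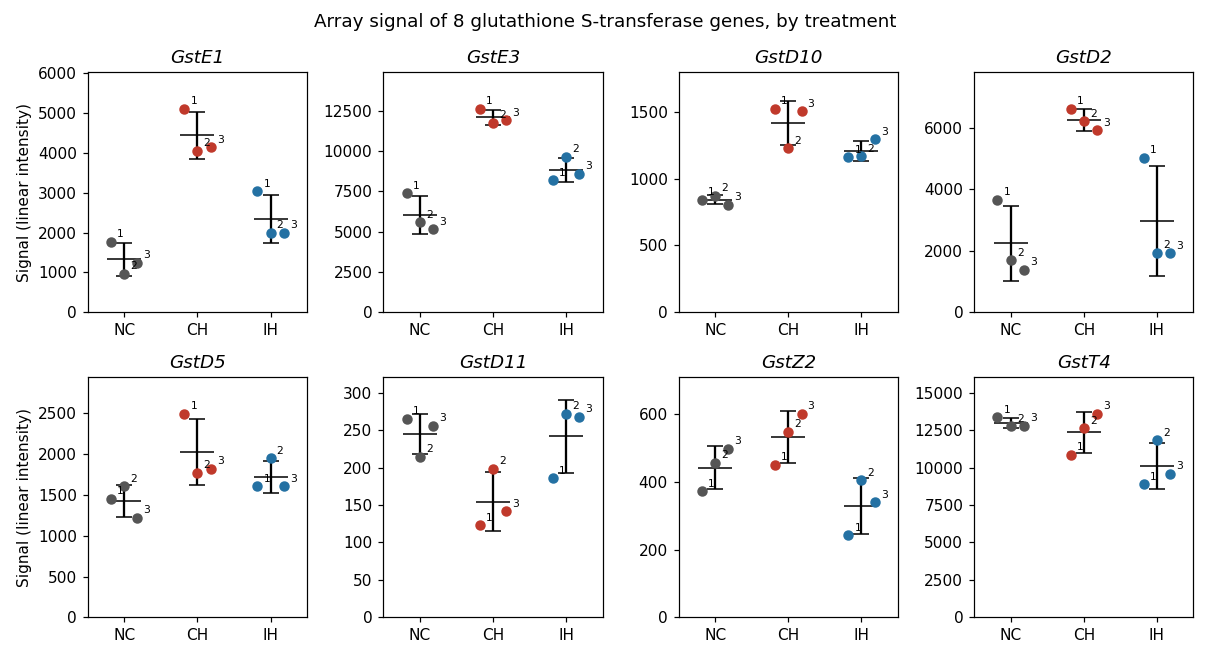
Linear signal of 8 genes, with points for single arrays (numbers are replicate numbers), horizontal marks for the mean and bars for the SD of 3 arrays, and each vertical axis from 0. CH points stand above NC without overlap for GstE1, GstE3, GstD10, GstD2 and GstD5, below it for GstD11, and IH points stand below NC for GstT4.

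The rest of the delta class overlapped NC in CH and in IH. GstD1, the enzyme known for metabolising DDT, had signals of 54729, 56532 and 60749 on the NC arrays, 60166, 60641 and 66218 on the CH arrays and 57045, 65085 and 68620.5 on the IH arrays. The groups overlapped, and the differences of 0.12 (95% interval -0.22 to 0.46) in CH and 0.15 (-0.20 to 0.49) in IH had intervals on both sides of 0. GstD3, GstD8 and GstD9 had signals of 3423 to 4021, 638 to 931 and 3094 to 4969 over the 9 arrays, each with overlapping groups. GstD4 (59.1 to 196) and GstD6 (8.7 to 108) were dim, GstD6 under 100 on 8 arrays. GstD7 had 76.2 on NC replicate 3 against 450.6 and 608.1 on the other 2, and its CH difference of 0.91 had an interval of -0.59 to 2.40 and was 0.06 without that array. The median log2 difference of the 11 delta genes was 0.12 in CH, with 9 above 0, and 0.15 in IH.

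In the epsilon class, the genes beside GstE1 and GstE3 were less separated. The values of GstE5, GstE7, GstE9 and GstE14 are given because of their patterns and were chosen after these were seen. GstE5 had signals of 999, 1106 and 773 on the NC arrays, 1125, 1286 and 1299 on the CH arrays and 862, 1297 and 859.6 on the IH arrays. Its CH arrays lay just above NC, and the log2 difference was 0.37 (95% interval -0.14 to 0.88). GstE7 had 13272, 5917 and 6026 on the NC arrays, 13164, 9499 and 10674 on the CH arrays and 16454, 13014 and 9697 on the IH arrays. One NC array was above every CH array, so the CH difference of 0.50 (-0.31 to 1.30) and the IH difference of 0.71 (-0.09 to 1.51) went with overlapping groups. GstE9 lay slightly below NC in CH, with 17551, 19118 and 18683 against 19490.5, 20066 and 19138, a difference of -0.09 (-0.41 to 0.24), and its dim second probe set, at 15.3 to 112.2, differed by 0.54 (SE 0.49), so that the mean of both was 0.23 above NC.

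GstE14, which acts in the synthesis of the moulting hormone ecdysone, had the widest spread of the class. Its signal was 317, 474 and 556 on the NC arrays, 58.0, 611 and 229 on the CH arrays and 78.1, 556 and 486 on the IH arrays, the arrays numbered 1 of CH and IH being the lowest, and the interval of its CH difference ran from -3.04 to 1.01, around a value of -1.01 that was -0.21 without CH replicate 1. GstE6 was read at 8756 on IH replicate 1 against 20401 and 26453 on the other 2. GstE12 had signals of 23716, 25792 and 27465 on the NC arrays, 18676, 26337 and 23866 on the CH arrays and 17579.9, 28692 and 24241 on the IH arrays, with overlapping groups and a CH difference of -0.17 (-0.69 to 0.35). The median log2 difference of the 13 epsilon genes was 0.10 in CH, with 8 above 0, and 0.06 in IH.

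The 10 genes of the other 4 classes did not stand apart from NC in CH. Their log2 differences ran from -0.19 to 0.26, and all their 95% intervals lay within -0.67 and 0.79. GstS1, the only sigma-class gene, is abundant in flight muscle, where it conjugates the lipid aldehyde 4-hydroxynonenal. Its signal was 13361, 16242 and 15023 on the NC arrays, 12891, 13598 and 13625 on the CH arrays and 11571, 15834 and 12061 on the IH arrays. The groups overlapped, with differences of -0.15 (-0.55 to 0.25) in CH and -0.19 (-0.59 to 0.22) in IH. The omega genes, whose enzymes reduce disulfides and dehydroascorbate, had a median of -0.01 in CH. Of these, GstO2 had signals of 12657, 12963 and 14689.6 on the NC arrays, 13086, 13425 and 14298 on the CH arrays and 11664, 11422 and 13172 on the IH arrays. These overlapped, with a CH difference of 0.02 (-0.32 to 0.36). Its second probe set, at 1482 to 2252, differed by 0.08. The theta genes lay at -0.12 to -0.01 in CH, with a median of -0.05. GstZ1, a zeta-class gene related to the enzymes that isomerise maleylacetoacetate in tyrosine breakdown, had 2759, 2090.2 and 2182 on the NC arrays, 2186, 1885 and 2380.3 on the CH arrays and 2414, 2038 and 2170.5 on the IH arrays. These too overlapped, with a CH difference of -0.12 (-0.53 to 0.29).

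**Figure D3:**
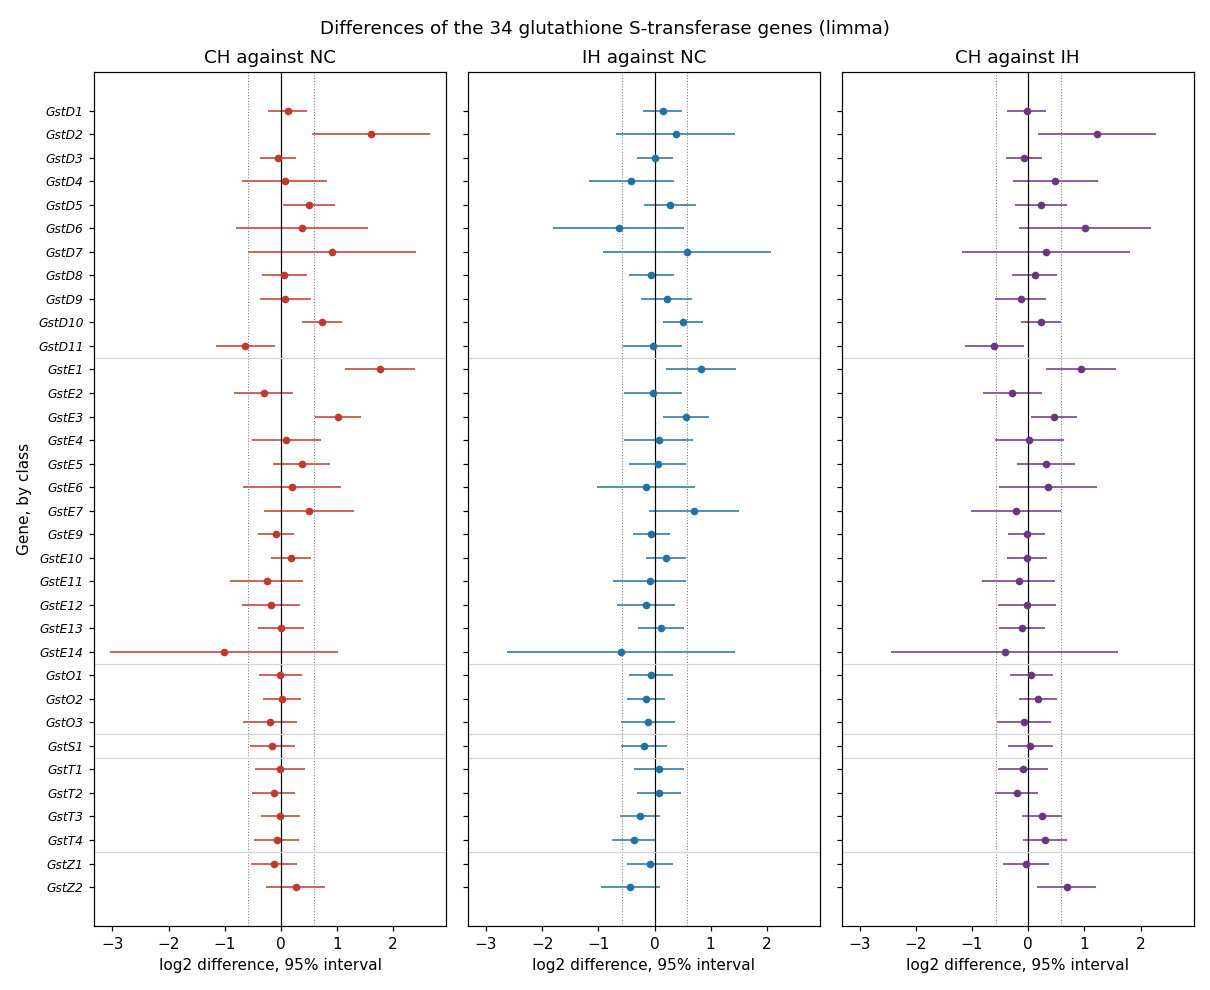
Log2 difference of each gene with its 95% interval from limma, in 1 panel for each of the 3 comparisons, with the genes by class and dotted lines at 1.5-fold and 0.67-fold. The intervals of GstE1, GstE3, GstD10, GstD2 and GstD5 lie above 0 in CH, and those of GstE1, GstE3 and GstD10 in IH.

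In IH, no GST gene met the limits, and neither did any other probe set (0%). At an unadjusted p under 0.05, 3 of 34 (8.82%) were higher, GstE1, GstE3 and GstD10, against 1.36% of all probe sets, and none was lower, against 2.23%. The same 3 genes were those with all IH arrays above all NC arrays (8.82%, against 2.63%). The theta genes GstT3 and GstT4 were those with all IH arrays below (5.88%, against 4.03%). The log2 difference was above 0 for 16 genes (47.1%), against 45.3%, and its median was -0.03, against -0.02. These counts move with the scaling of whole arrays: with median centring 22 genes were above 0, against 60.1% of all probe sets, with medians of 0.05 and 0.06, and with quantile normalization 19 were, against 50.3%. Without NC replicate 2, the count of higher genes was 1.

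GstT4 had the fourth smallest p in IH. Its signal was 13344, 12758 and 12772 on the NC arrays, 10857, 12618 and 13592 on the CH arrays and 8898, 11834 and 9566 on the IH arrays. All IH arrays were below NC, 2 of them clearly, while CH overlapped NC. The IH difference was -0.37 (SE 0.17, 95% interval -0.76 to 0.03, limma adjusted p = 1.00), and the CH difference was -0.07 (-0.47 to 0.32), or 0.04 without the 3 arrays numbered 1 and 0.02 without CH replicate 1. GstT3, also on the X chromosome, was chosen for its pattern and had 7005, 6249 and 6505 on the NC arrays, 6964, 6458 and 6219.7 on the CH arrays and 6220.2, 5068 and 5301 on the IH arrays. Its IH arrays were the lowest apart from CH replicate 3, and the difference was -0.26 (-0.61 to 0.10). GstD5 was 0.27 (-0.19 to 0.73) from NC in IH.

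Set directly against IH, CH gave no called GST gene, where 0.0373% of all probe sets were called. At an unadjusted p under 0.05, 4 genes (11.8%) were higher in CH, against 3.55%, and 1 (2.94%), GstD11, was lower, against 1.22%. All CH arrays lay above all IH arrays for GstD2, GstE1, GstE3 and GstZ2 (11.8%, against 5.07%) and below for no gene, against 2.79%. The difference was above 0 for 18 genes (52.9%), against 57.0%, with a median of 0.03, against 0.05. With median centring, which shifts every probe set alike, 14 genes were above 0, against 39.8% of all probe sets, and with quantile normalization 17 were, against 49.1%. The count of higher genes was 2 with median centring, without CH replicate 1 or without IH replicate 3, and 1 without CH replicate 3. The count of lower genes was 0 without CH replicate 1 or 3 and without IH replicate 2 or 3.

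GstE1 was 1.92-fold higher in CH than in IH, a log2 difference of 0.94 (SE 0.27, 95% interval 0.32 to 1.56, limma adjusted p = 0.672). GstE3 was higher by 0.46 (SE 0.18, 95% interval 0.04 to 0.87, limma adjusted p = 0.968). For GstD10 the difference of 0.23 had an interval of -0.13 to 0.58, so a gap between the hypoxia groups was not resolved. GstD2 was higher in CH by 1.23 (SE 0.46, 95% interval 0.18 to 2.28, limma adjusted p = 0.939), with 1 IH array at 5031 close below the CH values. GstD11 differed by -0.60 (SE 0.23, 95% interval -1.13 to -0.08, limma adjusted p = 0.952).

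GstZ2, the other zeta-class gene, had the second smallest p of the family in CH against IH. Its signal was 372, 455 and 497 on the NC arrays, 450.0, 546 and 600.0 on the CH arrays and 242, 404 and 339 on the IH arrays. All CH arrays were above all IH arrays, and NC overlapped both. The difference of CH from IH was 0.69 (SE 0.23, 95% interval 0.16 to 1.21, limma adjusted p = 0.801), while the difference from NC was 0.26 (-0.26 to 0.79) in CH and -0.43 (-0.95 to 0.10) in IH, both intervals spanning 0.

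By the RefSeq order of genes (assembly Release 6), 10 epsilon genes follow each other on chromosome arm 2R with no other protein-coding gene between them, as GstE10, GstE1, GstE2, GstE3, GstE4, GstE5, GstE6, GstE7, GstE8 and GstE9. GstE8 had no probe set of its own name and was not analysed here. The genes with the larger CH differences were not simply neighbours: GstE2 lies between GstE1 and GstE3, and its CH difference was -0.31 (-0.83 to 0.21). On 3R, a run of 10 delta genes begins with GstD10, GstD9, GstD1 and GstD2, where GstD10 and GstD2 were above NC and GstD9 and GstD1 between them overlapped it. GstD11 lies apart from that run. Near-identical paralogues in such runs can share probes, and how far single probe sets keep them apart was not tested.

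**Figure D4:**
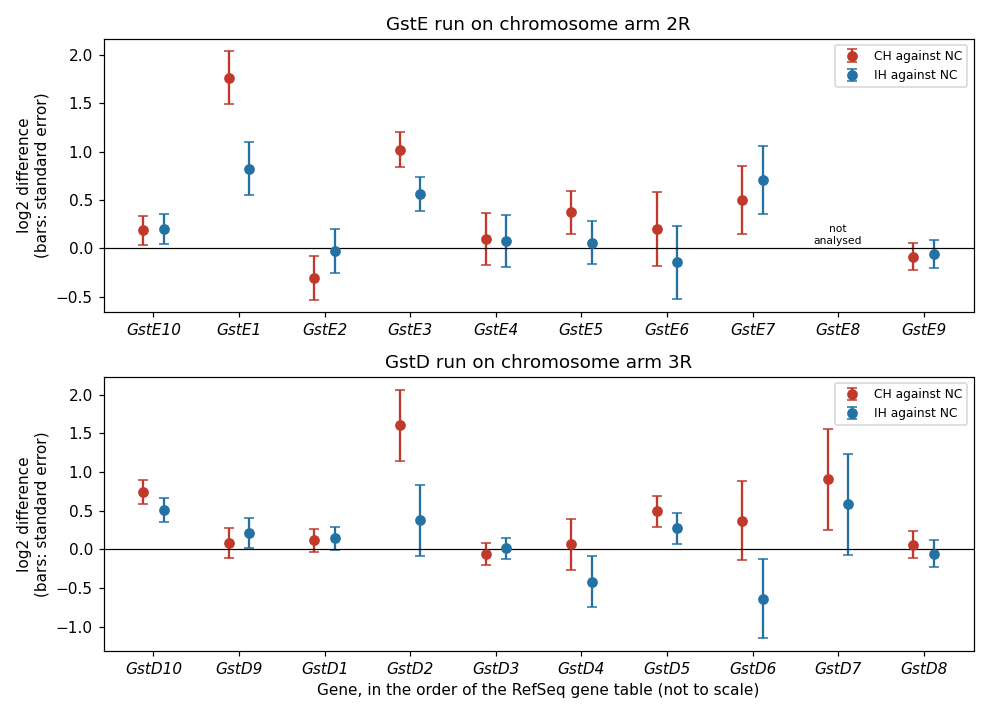
Log2 difference from NC in CH (red) and IH (blue) with its standard error, for the genes of the epsilon run on 2R and the delta run on 3R in their RefSeq order, not to scale. GstE2 lies at or below 0 between the higher GstE1 and GstE3, and GstD9 and GstD1 lie near 0 between the higher GstD10 and GstD2.

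Arrays of one group were close for most genes. The highest signal over the lowest within a group had a median of 1.25 in NC, 1.25 in CH and 1.41 in IH, and reached 7.98 for GstD7 in NC, 10.5 for GstE14 in CH and 7.90 for GstD6 in IH. The arrays numbered 1, which had the higher actin 3′ to 5′ ratios, were highest in all 3 groups for 8 genes (23.5%, against 16.1% of all probe sets), among them GstD2, GstE1 and GstE7, and lowest for 8 (23.5%, against 14.2%), among them GstE14 and GstZ2. Without these 3 arrays the CH difference was 1.89 for GstE1, 1.14 for GstE3 and 1.98 for GstD2.

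Other genes of the glutathione and detoxification system, taken from 6 lists, were measured for 24 of 28 names. None was called, and none had an unadjusted p under 0.05, in any of the 3 comparisons. Of all probe sets, 0.0213% were called in CH, 0% in IH and 0.0373% in CH against IH. At that p, 2.98%, 1.36% and 3.55% were higher and 1.70%, 2.23% and 1.22% lower. At such shares, 24 genes are too few for a count of 0 to show that they do not respond. The log2 differences of the listed genes were above 0 for 8 of 24 in CH, against 51.7% of all probe sets. In IH they were for 12 of 24, against 45.3%. The medians were -0.03 and -0.01. Gclc, the catalytic subunit of the enzyme that limits glutathione synthesis, had signals of 8365, 8358 and 8252 in NC and 8756, 9939 and 9958 in CH, a difference of 0.20. It was the 1 gene of the 24 with all CH arrays above NC, a smaller share than the 7.13% of all probe sets. Its modifier subunit Gclm lay at -0.03. The regulators cnc and Keap1 lay at -0.15 and -0.08. Trxr1, the thioredoxin reductase that also keeps glutathione reduced in flies, lay at 0.11, and its relative Trxr2, with the smallest p in CH, at 0.49. The cytochrome P450 gene Cyp6a8 lay at -0.40, and Jheh2, an epoxide hydrolase, at -0.11. In the other comparisons, too, a few of the 24 had groups that did not overlap. All IH arrays lay above NC for MRP and below it for maf-S, against 2.63% and 4.03% of all probe sets. All CH arrays lay above IH for Cyp6g1 and below it for Trx-2 and MRP, against 5.07% and 2.79%.

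Organ markers moved in part with the groups. Over all probe sets, the log2 difference was above 0 for 51.7% in CH, 45.3% in IH and 57.0% in CH against IH. None of the markers had an unadjusted p under 0.05 in CH against NC, where 2.98% of all probe sets were higher and 1.70% lower. All CH arrays lay above all NC arrays for 4 of 11 accessory gland, 1 of 10 testis and 1 of 11 ovary markers and for no other marker, against 7.13% of all probe sets. In CH, 10 of 10 testis and 10 of 11 accessory gland markers were above NC (medians 0.28 and 0.27), as were 8 of 11 ovary markers (0.20) and 5 of 6 midgut markers (0.07). The 6 Malpighian tubule and 3 fat body markers were all below NC (-0.16 and -0.26), and 1 of 5 neuron and 2 of 4 muscle markers were above it (-0.12 and 0.05). The summed testis signal ranged from 73499 to 86773 in NC, from 94263 to 110172 in CH and from 58710.4 to 116439.5 in IH. The summed Malpighian tubule signal ranged from 19082 to 21609 in NC, from 15961 to 19614 in CH and from 15837.5 to 24086.9 in IH. Both IH ranges reached beyond those of NC and CH at either end. The summed accessory gland signal ranged from 181535 to 202229 in NC, from 210292 to 251498 in CH and from 140196 to 238065 in IH. Only the testis and accessory gland sums were higher on all CH arrays than on all NC arrays. The NC and CH ranges overlapped for the other organs. In IH, 11 of 11 ovary and 6 of 6 midgut markers were above NC, and 1 of 6 Malpighian tubule, 0 of 3 fat body, 0 of 5 neuron, 4 of 10 testis, 5 of 11 accessory gland and 2 of 4 muscle markers were. The Malpighian tubule marker Oatp58Db was lower in IH, the only marker with an unadjusted p under 0.05 there, against 2.23% of all probe sets. Its IH arrays all lay below its NC arrays, against 4.03%. In CH against IH, 11 of 11 accessory gland markers (median 0.34), 9 of 10 testis markers (0.33, 1 of them at an unadjusted p under 0.05) and 4 of 4 muscle markers (0.08) were higher in CH, with 6 of 11 ovary, 3 of 6 midgut, 3 of 6 Malpighian tubule, 2 of 5 neuron and 0 of 3 fat body markers. The part of the organ markers in the GST differences was not tested.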

How the data were processed

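The authors extracted total RNA from whole flies, hybridised it to Affymetrix Drosophila arrays and normalized the raw data with the Bioconductor affy package (options not given in the sources used here). Linear intensity values were deposited, 1 column for each of 9 arrays, scaled to a common trimmed mean of 2500. Here 183 control probe sets were left out and log2(signal + 16) of the other 18769 was fitted with limma 3.58.1 in R 4.3.3, with 1 coefficient per group, all 9 arrays sharing the spread, and Benjamini-Hochberg adjustment over all probe sets. The limits on fold and direction follow the study's methods, whose own program was not run. The scripts were tested on simulated data, in which a large part of the changes put in were not called. The pass mark of that test was lowered after its first result was seen, and the fitted method was not changed. Symbols came from the platform annotation, and all 34 matched RefSeq. Values on every array are given for the 6, 4 and 4 genes of smallest p in the 3 comparisons, the 4 in the study's list, GstD1, GstS1 and 1 gene per class of highest mean signal; other genes given so were chosen after their values were seen. The genes and lists were chosen with earlier results of these data known. Of the listed glutathione and detoxification names, Gss1, Gss2, Cyp12d1-p and Jheh1 were not measured. Nor were the organ markers Jon99Cii, Amy-p, Amy-d, Uro, CapaR, to, nos, Syt1, Syx1A, Mhc, Act57B and wupA, which the marker counts leave out. The alternatives were only the 2 groups compared, a replicate block, a filter on dim probe sets, another spread estimate, other scalings, other added constants, the mean of a gene's probe sets and leaving out arrays. The log2 scale with 16 added understates differences of dim genes.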

Additional observations from a re-analysis of the deposited data

Results flagged for a closer look

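GstZ2, a zeta-class gene, had its CH arrays (450.0, 546.3 and 600.0) all above the mean of the NC arrays and its IH arrays (241.6, 404.3 and 339.3) all below it. The mean here is that of log2(signal + 16). The differences from NC were 0.26 (95% interval -0.26 to 0.79) in CH and -0.43 (-0.95 to 0.10) in IH, so neither group was separated from NC. The log2 difference of CH from IH was 0.69 (95% interval 0.16 to 1.21), and its own test over all probe sets gave a limma adjusted p of 0.801. With 3 arrays per group, single arrays were not tested as outliers.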

How the results depend on the processing

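Over 19 alternatives (18 for GstD4, GstD6, GstD11 and GstE14, which the filter on dim probe sets removed), the log2 difference kept its sign throughout for 23 genes in CH against NC, 17 in IH against NC and 19 in CH against IH, and changed it at least once for the other 11, 17 and 15. The largest difference that did so was 0.12 in size in CH, 0.60 in IH and 0.42 in CH against IH. The genes followed singly were chosen in part after their values were seen, with few near 0, and so are more stable than the family. The cause of the changes below was not tested.

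The count of called genes in CH against NC was 1 with the dimmest 40% left out, which dropped 4 of the 34 genes, and 2 with the mean-dependent, robust spread, instead of 0. Genes lower at an unadjusted p under 0.05 in CH were 1, and 0 under both of these and without the 3 arrays numbered 1 (an alternative chosen after seeing the data), with 0 to 1 when single arrays were left out. The gene concerned, GstD11, was itself removed by the filter. In IH they were 0, and 1 under both, with quantile normalization and with the replicate block, with 0 to 2 when single arrays were left out. In CH against IH they were 1, and 0 under both and with only the 2 groups compared, with 0 to 1. Higher genes in CH against NC were 5, and 4 with median centring. Higher genes in CH against IH were 4, and 2 with median centring, with 1 to 5 when single arrays were left out, and in IH they were 3, with 1 to 4. The median in CH was -0.0025 with median centring and ran from -0.025 to 0.072 without single arrays. In CH against IH it was -0.0040 with quantile normalization, -0.096 with median centring and -0.0045 without the 3 arrays numbered 1, and ran from -0.0049 to 0.12. Median centring moved the median of all probe sets in CH against IH from 0.05 to -0.08.

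Direction changed for GstO2 in CH with median centring (-0.024), which moved the median of all probe sets alike from 0.01 to -0.03, for GstE9 with the mean of both probe sets (0.23) and for GstT4 without the 3 arrays numbered 1 (0.037). When single arrays were left out, the CH difference ran from -0.022 to 0.086 for GstO2, from -0.20 to 0.0036 for GstZ1 and from -0.15 to 0.015 for GstT4, and the IH difference of GstD2 from -0.083 to 0.79. Again with single arrays left out, the limma adjusted p in CH ran from 0.153 to 0.519 for GstE1, from 0.236 to 0.776 for GstE3 and from 0.436 to 0.961 for GstD10.

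Samples of the same number correlated at 0.0918 to 0.322 in their deviations from the group means, and those of different numbers at -0.212 to 0.0833. Every array thus correlated best with its own number, a hint from the data, but not every pair passed 0.1 and the labels give no shared origin, so the numbers were not taken to pair them. With the replicate block, 0 genes were called in each comparison, though limma adjusted p-values of the genes followed were lower than in the main fit. In CH against NC they were 0.100 for GstE1 (main fit 0.168) and 0.327 for GstD2 (0.720). For GstE1 in CH against IH the limma adjusted p was 0.252 (0.672). Low signal limits what can be said of GstD4, GstD6, GstD7 and GstE14, which lay under 100 on 1, 8, 1 and 2 arrays.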
